A study of Oryctolagus cuniculus with 24 samples.

Results

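In lamina propria mononuclear cells (LPMC) of the rabbit caecum, 17318 genes were measured. Of these, 185 stood lower in rabbits given dextran sodium sulphate (DSS) than in controls given the vehicle without DSS. They stood lower again in rabbits that had received ova of the pig whipworm Trichuris suis (TSO) before DSS. The 185 genes were chosen by their own values in 9 LPMC libraries. Levels are given as CPM, the reads of a gene scaled to the same library total, and were compared as log2(CPM + 1). A gene was kept when it lay off the mitochondrial genome, when its mean in TSO DSS was more than 2 units under its mean in Veh Water, when its highest TSO DSS library lay under its lowest Veh Water library, and when its mean in Veh DSS was at least 1 unit under that in Veh Water. Of 17281 genes off the mitochondrial genome, 456 met the first limit on TSO DSS, 400 also had no overlap with Veh Water, and 187 also met the limit on Veh DSS. Of these, 2 genes were set aside. Another 213 genes met both conditions on TSO DSS with a Veh DSS change above -1. Everything said about Veh Water, Veh DSS and TSO DSS in LPMC therefore describes the choice and carries no test.

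RNA was sequenced from caecal intestinal epithelial cells (IEC) and LPMC of 12 New Zealand White rabbits, with 3 rabbits in each of 4 groups and both cell types taken from each rabbit. TSO Water and TSO DSS rabbits received 3 intragastric doses of 2500 ova on days 1, 14 and 21, while Veh Water and Veh DSS rabbits received the vehicle. Veh DSS and TSO DSS rabbits then drank 0.1% DSS for 5 days from day 26, Water rabbits had the beverage without DSS, and all were sacrificed on day 35. All rabbits given DSS, and 4 of the 6 others, were kept in room A, whereas Veh Water 1 and TSO Water 2 were kept in room B.

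The lamina propria is the connective tissue beneath the gut epithelium, and preparations of its mononuclear cells hold macrophages, lymphocytes, plasma cells and, depending on the isolation, other cells of the mucosa. DSS damages the epithelial lining and brings on an acute colitis with an influx of inflammatory cells. Ova of T. suis hatch in the large intestine, and whipworm infection is known for a type 2 response with eosinophils and alternatively activated macrophages. In RNA from a whole cell preparation, fewer cells of a type and less RNA per cell cannot be told apart.

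The genes carry Ensembl identifiers of the rabbit without symbols, and none of the 17318 identifiers matched the table of gene names that could be used here. The genes are therefore described by identifier and chromosome, the cell type labels LPMC and IEC were not checked on marker genes, and no function is given to any of the 185 genes. LPMC libraries held 3685511 to 15770415 reads on genes and IEC libraries 13148569 to 27479949, and the smallest library was LPMC TSO DSS 3. Mitochondrial genes took 9.06% to 24.98% of the reads in LPMC and 12.4% to 46.5% in IEC.

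In LPMC of Veh Water rabbits, the 185 genes ranged from a mean of 3.86 CPM to 2245 CPM, with a median of 30.1 CPM beside 19.2 CPM for the 11059 genes marked as present in the table of TSO DSS and Veh Water. Among them, 33 genes had a mean under 10 CPM, 105 lay between 10 and 100 CPM, and 47 were above 100 CPM. They were spread over 20 chromosomes, with 20 genes on chromosome 1 and 17 on chromosome 3, and none on chromosomes 20 and 21, which held 1.44% and 1.33% of all genes marked as present. On the minus strand lay 110 genes (59.5%), beside 49.9% of all genes marked as present.

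The median level over the 185 genes was 36.2, 28.9 and 21.5 CPM in LPMC of Veh Water rabbits 1, 2 and 3. Veh DSS libraries had medians of 18.1, 4.57 and 12.7 CPM. TSO DSS libraries had 2.17, 3.40 and 1.90 CPM. All Veh DSS medians thus lay under all Veh Water medians, and all TSO DSS medians under all Veh DSS medians, with Veh DSS 2 nearest to the TSO DSS group. TSO Water libraries, which the choice did not use, had medians of 20.3, 22.8 and 29.5 CPM and overlapped with the Veh Water libraries. Summed over the genes, the level was 20855 ± 5330 CPM (SD, n = 3) in Veh Water, 15756 ± 2304 CPM in TSO Water, 9567 ± 6241 CPM in Veh DSS and 1740 ± 795 CPM in TSO DSS. Both groups without DSS overlapped in this sum. The spread of Veh DSS was wide, with 15561 and 10034 CPM in replicates 1 and 3 beside 3105 CPM in replicate 2.

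**Figure D1:**
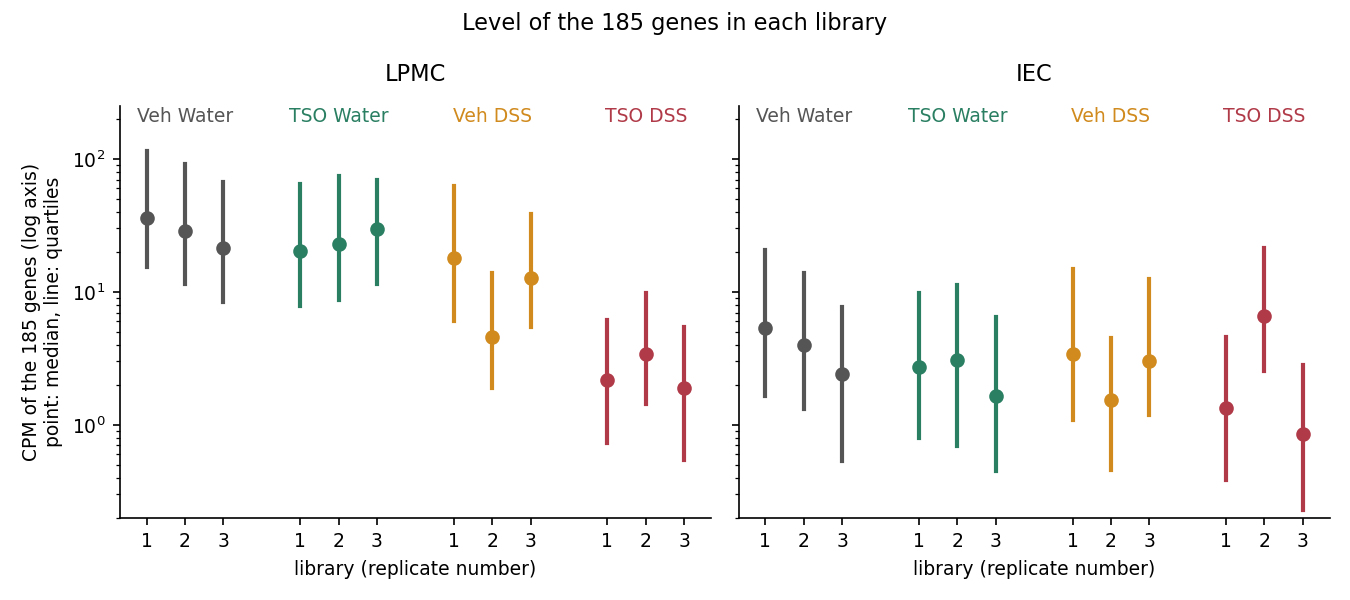
Level of the 185 genes in each of the 24 libraries, as CPM on a log axis, with LPMC on the left and IEC on the right. Points are medians over the genes and lines reach from the lower to the upper quartile; in LPMC the medians run from 36.2 CPM in Veh Water 1 down to 1.90 CPM in TSO DSS 3, whereas in IEC all medians lie between 0.853 and 6.55 CPM.

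Between TSO DSS and Veh Water in LPMC, the change of the 185 genes had a median of -2.91 on the log2(CPM + 1) scale and ran from -5.18 to -2.02, while the median over all 11059 genes marked as present was 0.05. The TSO DSS libraries lay under every Veh Water library for all 185 genes, as the choice required, and did so for 13.7% of all genes marked as present. Between Veh DSS and Veh Water the median change was -1.31, from -2.42 to -1.002, beside 0.05 over all genes. Here the choice required no separation of the groups, and 97 of the 185 genes had all Veh DSS libraries under all Veh Water libraries, beside 5.36% of all genes. From Veh DSS to TSO DSS the difference had a median of -1.62 and ran from -3.83 to -0.43, beside -0.02 over all genes. All TSO DSS libraries lay under all Veh DSS libraries for 118 of the 185 genes, beside 7.21% of all genes.

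The Veh DSS rabbits differed among themselves. Against the Veh Water mean, the median change of the 185 genes was -0.74 in Veh DSS 1, -2.27 in Veh DSS 2 and -1.02 in Veh DSS 3. Veh DSS 2 was the lowest of its group for 174 of the 185 genes, beside 47.8% of all genes marked as present, and lay under every Veh Water library for 184 of them, beside 29.5% of all genes marked as present in Veh DSS. Veh DSS 1 lay at or above the lowest Veh Water library for 77 genes, and Veh DSS 3 for 31, beside 85.7% and 81.9% of all genes. For 52 genes (28.1%) Veh DSS 2 was under TSO DSS 2, beside 64.3% of all genes marked as present in either group. The choice of the 185 genes used these libraries, so nothing is read from these shares. The 3 TSO DSS libraries were closer together, with median changes of -3.06, -2.57 and -3.18, and TSO DSS 2 was the highest of them for 125 genes, beside 42.9% of all genes marked as present. Without Veh DSS 2 the median change of the 185 genes in Veh DSS was -0.84, and 64 genes met all conditions, each of them among the 185.

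**Figure D2:**
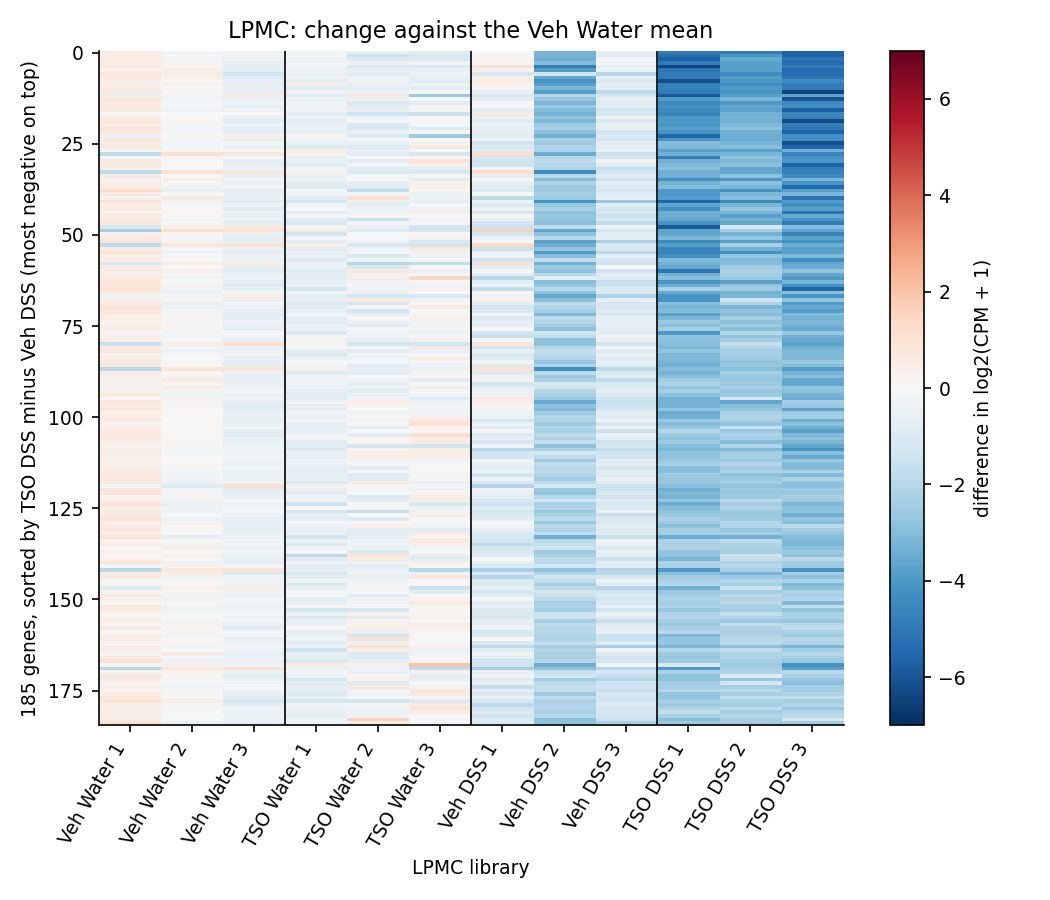
Each row is 1 of the 185 genes and each column an LPMC library; the colour is the difference in log2(CPM + 1) from the Veh Water mean of the gene, with blue for lower. The TSO DSS columns are blue in every row, Veh DSS 2 is darker than Veh DSS 1 and Veh DSS 3 in most rows, and the TSO Water columns stay near the Veh Water columns.

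The most abundant of the genes was ENSOCUG00000006969 on chromosome 4. It measured 3437, 1846 and 1453 CPM in LPMC of Veh Water, 1526, 1493 and 2152 CPM in TSO Water, 1252, 305 and 1473 CPM in Veh DSS, and 132, 228 and 30.1 CPM in TSO DSS. Each TSO DSS library was under each library of the other groups, while Veh DSS 3 reached the level of the lowest Veh Water library. The mean change was -1.34 in Veh DSS and -4.42 in TSO DSS. ENSOCUG00000005592, also on chromosome 4, followed the same order, with 2077, 1285 and 1191 CPM in Veh Water, 560, 266 and 940 CPM in Veh DSS, and 178, 153 and 19.8 CPM in TSO DSS, and here no library of the 3 groups overlapped with another group. ENSOCUG00000001597 on chromosome 2 measured 2432, 963 and 808 CPM in Veh Water, 373, 328 and 623 CPM in Veh DSS, and 254, 221 and 24.7 CPM in TSO DSS. Its groups did not overlap either, and TSO DSS 3 was far under the other TSO DSS libraries.

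The other abundant genes showed how uneven the levels could be within a group. ENSOCUG00000007056 on chromosome 12 measured 1029, 801 and 497 CPM in Veh Water and 1079, 39.7 and 359 CPM in Veh DSS, against 9.42, 42.4 and 33.1 CPM in TSO DSS. Veh DSS 1 was thus above all Veh Water libraries and Veh DSS 2 within the range of TSO DSS. ENSOCUG00000011637 on chromosome 13 measured 88.3, 999.6 and 979.6 CPM in Veh Water and 34.8, 80.0 and 33.9 CPM in TSO DSS, so that Veh Water 1 was only just above TSO DSS 2. For this gene Veh DSS 1 was at 1360 CPM, above every control. ENSOCUG00000003010, on chromosome 13 as well, differed less, from 1139, 869 and 896 CPM in Veh Water to 673, 255 and 351 CPM in Veh DSS and 180, 429 and 124 CPM in TSO DSS, and its TSO DSS libraries overlapped with those of Veh DSS.

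The most negative change in TSO DSS was that of ENSOCUG00000005174 on chromosome 13, at -5.18, with 501, 328 and 206 CPM in Veh Water, 215, 21.4 and 89.4 CPM in Veh DSS, and 9.54, 17.4 and 2.71 CPM in TSO DSS. It was followed by ENSOCUG00000000092 on chromosome 19, at -5.15, which measured 460, 270 and 234 CPM in Veh Water, 311, 29.6 and 195 CPM in Veh DSS, and 8.81, 9.76 and 5.16 CPM in TSO DSS. For the latter gene the mean was 321 ± 122 CPM in Veh Water, 179 ± 142 CPM in Veh DSS and 7.91 ± 2.43 CPM in TSO DSS (SD, n = 3), and the difference between TSO DSS and Veh DSS, -3.83, was the most negative of the 185 genes. In each of these genes the TSO DSS libraries lay under all Veh DSS libraries, of which replicate 2 was the lowest.

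ENSOCUG00000013111 on chromosome 14, ENSOCUG00000002407 on chromosome 8 and ENSOCUG00000016660 on chromosome 15 also had TSO DSS changes of -4.89 to -5.01. ENSOCUG00000013111 had 272 and 95.6 CPM in Veh DSS 1 and 3, the former above all its Veh Water libraries (229, 156 and 84.6 CPM), but 3.68 CPM in Veh DSS 2, which was under TSO DSS 2 at 9.47 CPM. ENSOCUG00000002407 measured 200, 148 and 121 CPM in Veh Water, 177, 15.0 and 91.0 CPM in Veh DSS, and 3.02, 8.03 and 2.17 CPM in TSO DSS. Large differences between TSO DSS and Veh DSS were also found for ENSOCUG00000014657 on chromosome 2, at -3.67, and ENSOCUG00000017302 on chromosome 3, at -3.64. In both, Veh DSS 1 and 3 lay within the range of Veh Water, and only Veh DSS 2, at 42.9 CPM for ENSOCUG00000014657 and 30.1 CPM for ENSOCUG00000017302, was far under it.

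At the other end were genes with the smallest differences between the DSS groups on this scale, all of them at low levels. ENSOCUG00000008312 on chromosome 3 measured 27.8, 9.26 and 8.34 CPM in Veh Water, 5.93, 0.888 and 1.94 CPM in Veh DSS, and 1.33, 1.59 and 1.63 CPM in TSO DSS, with a difference of -0.43 between the DSS groups. The range of TSO DSS lay within that of Veh DSS. ENSOCUG00000001473 on chromosome 14, ENSOCUG00000006656 on chromosome 12, ENSOCUG00000002630 on chromosome 11 and ENSOCUG00000015170 on chromosome 10 differed by -0.44 to -0.62, and all had a mean under 20 CPM in Veh Water. In both DSS groups these genes were at or under 5.93 CPM in every library, where adding 1 understates a fold difference.

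In TSO DSS, ENSOCUG00000009702 on chromosome 16 had no read in any of the 3 libraries. Set against 3 reads in each library, its mean of 4.42 CPM in Veh Water gives a level at least 9.53-fold lower. At most 3 reads in each TSO DSS library were counted for 7 genes, and 160 of the 185 genes had a read in every TSO DSS library. LPMC TSO DSS 3, the library with the fewest reads, held no read of 24 of the genes, and after thinning the other libraries to its depth 204 genes met the conditions, of which 169 were among the 185.

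Near the limits, the genes on either side had similar values. ENSOCUG00000006073 (chromosome 4, -2.02) and ENSOCUG00000006656 (-2.02) were the last inside the limit on TSO DSS, and ENSOCUG00000014421 (chromosome 13, -1.99) and ENSOCUG00000013942 (chromosome 7, -1.99) the first outside it. ENSOCUG00000010594 and ENSOCUG00000003594, both on chromosome 13, were just inside the limit on Veh DSS with -1.002 and -1.005, and ENSOCUG00000001020 (chromosome 7, -0.9998) and ENSOCUG00000026693 (chromosome 4, -0.99) just outside. For the distance between the highest TSO DSS and the lowest Veh Water library, ENSOCUG00000010814 (chromosome 12, 0.04) and ENSOCUG00000001129 (chromosome 7, 0.06) were just inside, and ENSOCUG00000019936 (chromosome 4, 0.00) and ENSOCUG00000025810 (chromosome 17, -0.12) just outside.

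LPMC of TSO Water rabbits showed what the genes did after ova alone, in libraries that the choice did not use, although the Veh Water libraries they are set against were used. The 185 genes had a median change of -0.33 on the log2(CPM + 1) scale, beside 0.02 over all genes marked as present. Of them, 129 were within 0.5 of 0. The mean was lower in TSO Water for 159 genes, by more than 1 for 7 of them. TSO Water 1, 2 and 3 lay under every Veh Water library for 91, 67 and 34 of the genes. The shares of all genes for these counts were not taken, so nothing is read from them. All TSO Water libraries lay under all Veh Water libraries for 8 of the 185 genes (4.32%), beside 3.47% of all genes. By limma on log2(deposited value + 1), with Benjamini-Hochberg adjustment over all 11175 genes, none of the 185 genes was called, which took an adjusted p-value under 0.05 with a log2 fold change past 1, which was so for 0% of all genes lower and 0.0268% higher, and edgeR's quasi-likelihood test on recovered reads gave 0 calls as well. With p-values left unadjusted, limma counted 5 lower and 0 higher genes, beside 0.922% and 2.41% of all genes, and edgeR 6 lower and 1 higher, beside 1.15% and 2.37%.

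ENSOCUG00000012403 on chromosome 1 had the most negative TSO Water change, -1.37, with 10.7, 2.99 and 3.56 CPM beside 6.48, 21.3 and 21.0 CPM in Veh Water, and these groups overlapped. ENSOCUG00000009070 on chromosome 7 measured 82.8, 45.1 and 42.3 CPM in TSO Water and 129, 123 and 127 CPM in Veh Water, and ENSOCUG00000007249 on chromosome 2 measured 5.79, 4.49 and 3.72 CPM beside 14.0, 12.5 and 8.34 CPM. In these genes all TSO Water libraries were under all Veh Water libraries. The limma log2 fold change was -1.28 (SE 0.27, Benjamini-Hochberg adjusted p = 0.261) for ENSOCUG00000009070 and -1.34 (SE 0.27, adjusted p = 0.216) for ENSOCUG00000007249, which did not pass the threshold. ENSOCUG00000024221 on chromosome 10 (-1.23) stayed at 0.935 to 1.58 CPM in TSO Water, with a Veh Water range of 0.986 to 8.54 CPM.

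The most positive TSO Water change was that of ENSOCUG00000024036 on chromosome 14, at 0.98. This gene measured 159, 210 and 126 CPM in Veh Water, 259, 197 and 637 CPM in TSO Water, 65.5, 13.8 and 127 CPM in Veh DSS, and 73.5, 26.6 and 7.60 CPM in TSO DSS. TSO Water 2 was within the range of Veh Water and the other TSO Water libraries were above it. ENSOCUG00000001473, ENSOCUG00000007052 on chromosome 3 and ENSOCUG00000009424 on chromosome 9 followed with 0.36 to 0.43, each with at least 1 TSO Water library inside or under the Veh Water range.

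Set against TSO Water rather than Veh Water, which compares rabbits that had all received ova, the TSO DSS level of the 185 genes had a median difference of -2.65 on the log2(CPM + 1) scale, beside 0.00 over the 11237 genes marked as present. All TSO DSS libraries lay under all TSO Water libraries for 183 of the 185 genes, and for 14.8% of all genes. The TSO DSS libraries chose the genes, so this is a description too. The 2 genes with an overlap were ENSOCUG00000001129, where TSO DSS 2 at 69.0 CPM was above TSO Water 3 at 61.2 CPM, and ENSOCUG00000016243 on chromosome 5, where TSO DSS 2 at 1.59 CPM was above TSO Water 1 at 1.03 CPM.

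**Figure D3:**
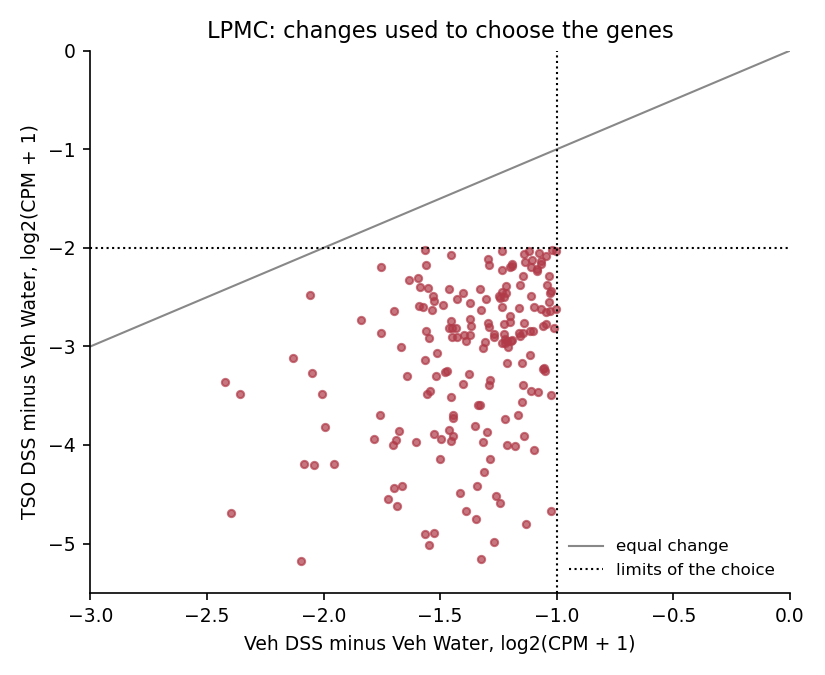
For each of the 185 genes in LPMC, the change in Veh DSS (horizontal) and in TSO DSS (vertical) against Veh Water on the log2(CPM + 1) scale, with the limits of the choice as dotted lines and equal change as a grey line. Both axes use the same Veh Water libraries, and the choice places every point left of and under the dotted lines; a point under the grey line had a larger decrease in TSO DSS than in Veh DSS.

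A second question is in which of the cell types the genes are read. Libraries of TSO Water rabbits were not used in the choice, and here LPMC and IEC of the same 3 rabbits were compared after scaling the recovered reads together. In limma on log2(scaled reads + 1), with Benjamini-Hochberg adjustment over 11514 genes, 154 of the 185 genes (83.2%) were higher in LPMC and 0 were lower, whereas 15.8% of all genes were called higher and 4.59% lower. The median log2 fold change of LPMC over IEC was 3.07 for the 185 genes and 0.00 for all genes tested. On the log2(CPM + 1) scale the median difference was 2.496 for the 185 genes, 2.20 for the 213 genes that met only the conditions on TSO DSS and 0.06 for all genes tested. A gene had to be well above 0 in LPMC of Veh Water to be chosen, and among the 8693 tested genes at or above 3.86 CPM there, the lowest mean of the 185, 15.0% were called higher in LPMC. With edgeR's quasi-likelihood test 153 of the 185 genes were higher and 0 lower, beside 14.9% and 4.46% of all genes. With p-values left unadjusted, 0 of the 185 genes were lower in LPMC and 162 higher by limma, beside 5.65% and 18.8% of all genes, and edgeR then counted 2 lower and 159 higher, beside 5.71% and 18.4%. All LPMC libraries lay above all IEC libraries for 165 of the genes, beside 25.7% of all genes.

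**Figure D4:**
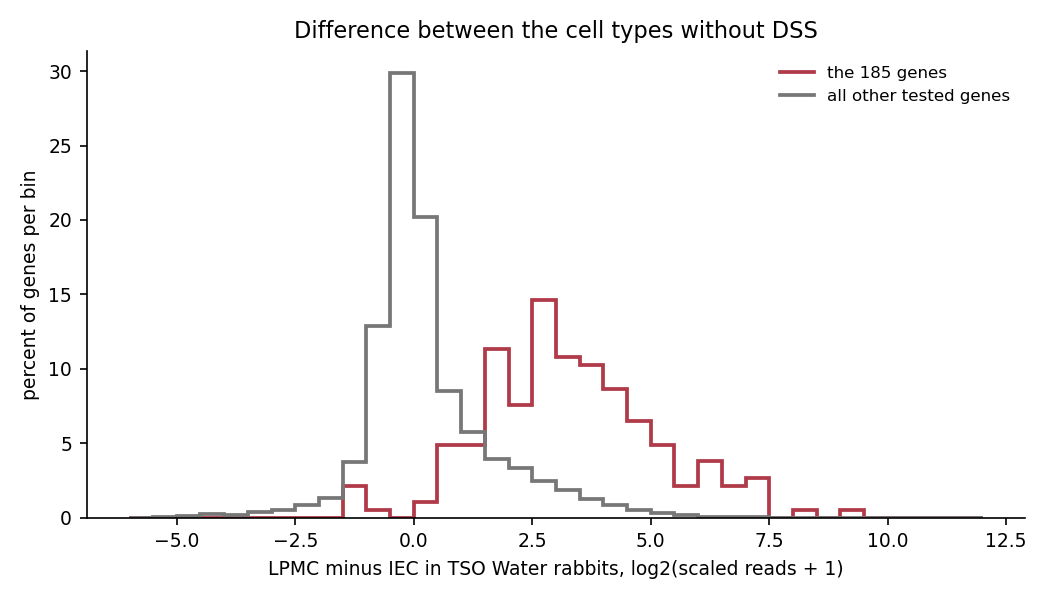
Distribution of the difference between LPMC and IEC of TSO Water rabbits on the log2(scaled reads + 1) scale, as the percent of genes in each bin of 0.5, for the 185 genes in red and all other tested genes in grey. The grey outline peaks just under 0. The red one, with a median of 3.07, lies almost wholly to the right of that peak and overlaps with the grey outline.

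With a pseudocount of 1, the largest difference between the cell types was that of ENSOCUG00000001597, with 532, 965 and 1522 CPM in LPMC and 2.09, 4.97 and 0.300 CPM in IEC of TSO Water rabbits, a log2 fold change of 9.10 (SE 0.96, Benjamini-Hochberg adjusted p = 0.0011, limma). ENSOCUG00000003322 on chromosome 11 measured 44.2, 68.6 and 104 CPM in LPMC and at most 0.375 CPM in IEC (8.41, SE 0.74, adjusted p = 0.000611). It had 2, 7 and 0 reads in IEC, so the size depends on the pseudocount and scaling, with 9.77 at a pseudocount of 0.1 and 5.90 with scaling by library total. ENSOCUG00000011655 on chromosome 18, ENSOCUG00000006131 on chromosome 15 and ENSOCUG00000023599 on chromosome 14 had log2 fold changes of 7.37, 7.24 and 7.23. ENSOCUG00000011655 had 0, 1 and 0 reads in IEC of TSO Water rabbits, and its log2 fold change was 9.89 with a pseudocount of 0.1, 8.99 by edgeR and 4.00 with scaling by library total. For the last 3 genes no IEC library of TSO Water rabbits exceeded 11.2 CPM, while LPMC libraries ranged from 8.42 CPM for ENSOCUG00000011655 to 655 CPM for ENSOCUG00000023599, and the cell types did not overlap for any of these genes.

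The lowest adjusted p-value belonged to ENSOCUG00000021313 on chromosome 1, with 51.2, 69.0 and 62.2 CPM in LPMC and 3.25, 2.84 and 2.55 CPM in IEC of TSO Water rabbits (log2 fold change 4.29, SE 0.20, Benjamini-Hochberg adjusted p = 0.000246, limma). ENSOCUG00000000440 on chromosome 3, ENSOCUG00000016011 on chromosome 19, ENSOCUG00000009424 and ENSOCUG00000010232 on chromosome 2 followed, with log2 fold changes of 2.95 to 7.19. ENSOCUG00000009424 had no read in any IEC library of TSO Water rabbits and 94, 195 and 134 reads in LPMC, so its log2 fold change was 3.57 with scaling by library total, 7.19 at a pseudocount of 1 and 10.50 at 0.1, where it exceeded the 9.21 of ENSOCUG00000001597. Genes with strongly negative TSO DSS changes differed in this measure. ENSOCUG00000005174 was 4.68 higher in LPMC (SE 0.35, adjusted p = 0.000385), but ENSOCUG00000000092 was 1.63 higher (SE 0.20, adjusted p = 0.00201) and ENSOCUG00000013111 0.88 higher (SE 0.34, adjusted p = 0.103), which did not pass. For 5 genes the LPMC mean was under the IEC mean, with log2 fold changes of -1.42 to -0.91, and none of these differences passed the test.

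Other genes are grouped here by cell type, as a description without a test, since the 185 genes were chosen by these LPMC changes. The 1663 other genes called higher in LPMC than in IEC of TSO Water rabbits had a median change of -0.33 in LPMC of TSO DSS and -0.21 in Veh DSS on the log2(CPM + 1) scale, and the 528 genes called higher in IEC had 0.16 and 0.10. Per library, the median level of the former was 14.9, 11.0 and 7.88 CPM in Veh Water, 10.9, 6.78 and 11.8 CPM in Veh DSS and 7.12, 6.80 and 6.51 CPM in TSO DSS, and that of the latter 6.19, 8.91 and 7.93 CPM, 9.27, 8.15 and 8.49 CPM, and 7.73, 9.98 and 7.19 CPM. The genes higher in LPMC were thus lower in every TSO DSS library than in every Veh Water library by this median, and those higher in IEC overlapped between the groups. Only the 185 genes were left out of the 1663. Any of the 213 genes that met only the conditions on TSO DSS and were called higher in LPMC are among them. For such genes the decrease in TSO DSS was a condition. The part of either in the lower level of the 185 genes was not tested.

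In IEC, whose libraries took no part in the choice, the median level of the 185 genes was low. It was 5.38, 3.96 and 2.43 CPM in Veh Water, 2.74, 3.05 and 1.65 CPM in TSO Water, 3.40, 1.54 and 3.01 CPM in Veh DSS, and 1.35, 6.55 and 0.853 CPM in TSO DSS. Some of the genes were abundant in IEC. ENSOCUG00000003010 ran from 285 to 725 CPM, and ENSOCUG00000006969 reached 1161 CPM in IEC TSO DSS 2. By the median of the 185 genes, the IEC libraries of TSO DSS differed widely. TSO DSS 2 was thus above every other IEC library, and TSO DSS 1 and 3 were under all others. Among 179 genes tested between TSO DSS and Veh Water by limma with Benjamini-Hochberg adjustment over 11225 genes, 1 was lower and 1 was higher, beside 0.107% and 3.47% of all genes. With p-values left unadjusted the counts were 21 lower and 11 higher, which is 11.7% and 6.15% of the genes tested, beside 1.97% and 7.92% of all genes. By edgeR they were 14 lower and 12 higher, beside 1.7% and 8.06% of all genes. All TSO DSS libraries lay under all Veh Water libraries for 24 of the 185 genes in IEC and above them for 6, beside 21% and 7.31% of all genes. On the deposited scale the median log2 fold change was -0.77, beside -0.02 over all genes, with 127 genes lower and 52 higher, whereas by edgeR it was -0.21, beside -0.01, with 100 lower and 79 higher. Without IEC TSO DSS 2, 21 of the genes were called lower and 0 higher by limma, beside 0.49% and 2.76% of all genes.

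The gene called lower in IEC of TSO DSS was ENSOCUG00000024465 on chromosome 14, with 6.55, 20.001 and 3.88 CPM in IEC of Veh Water and 0.0641, 0.520 and 0 CPM in TSO DSS, a log2 fold change of -5.63 on the deposited scale (SE 0.99, Benjamini-Hochberg adjusted p = 0.0288, limma). Its TSO DSS libraries held 1, 12 and 0 reads in IEC, and the log2 fold change was -7.02 with a pseudocount of 0.1 (adjusted p = 0.0837, limma), -2.97 with scaling by library total (adjusted p = 0.026, limma) and -5.35 by edgeR (adjusted p = 0.0555). Its LPMC values were lower too, from 19.0, 32.7 and 19.7 CPM to 0.241, 0.434 and 1.63 CPM. The gene called higher was ENSOCUG00000025226 on chromosome 12, with 0.0364, 0.0466 and 0 CPM in IEC of Veh Water and 1.09, 1.60 and 0.398 CPM in TSO DSS (3.77, SE 0.59, adjusted p = 0.0194). With 1, 1 and 0 reads in Veh Water, its log2 fold change was 5.51 with a pseudocount of 0.1 (adjusted p = 0.0549, limma), 0.94 with scaling by library total (adjusted p = 0.109, limma) and 4.94 by edgeR (adjusted p = 0.0224). In LPMC this gene was at 22.7, 11.8 and 10.8 CPM in Veh Water and 1.81, 1.59 and 1.09 CPM in TSO DSS, so that under TSO DSS the ranges of the cell types overlapped. Neither call was kept when any 1 of several libraries was left out, with adjusted p-values from 0.0175 to 0.132 for ENSOCUG00000024465 and from 0.0232 to 0.106 for ENSOCUG00000025226. Their log2 fold changes by limma then ran from -6.57 to -4.87 and from 3.44 to 4.17. The call on ENSOCUG00000024465 was lost without TSO DSS 1 or 3 or without any Veh Water library, and that on ENSOCUG00000025226 without TSO DSS 1 or 2 or without Veh Water 1 or 3.

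The other IEC comparisons gave no call among the genes. Between IEC of Veh DSS and Veh Water, 0 of 177 genes tested passed in limma after Benjamini-Hochberg adjustment, beside 0.0625% of all genes called lower and 0.0268% higher, and none by edgeR, which left 5 lower and 6 higher unadjusted, beside 1.03% and 6.35% of all genes. Unadjusted, limma counted 9 lower and 5 higher, beside 1.22% and 5.22% of all genes. All Veh DSS libraries lay under all Veh Water libraries for 9 of the 185 genes in IEC and above them for 8, beside 9.28% and 5.66% of all genes. Without IEC Veh DSS 1, 7 genes were called lower and 0 higher by limma, beside 0.5% and 2.2% of all genes. Between TSO Water and Veh Water 0 of 174 genes passed in limma or edgeR, and no gene of the table was called (0% in either direction). Unadjusted, limma counted 1 lower and 2 higher, beside 0.51% and 1.2% of all genes, and edgeR 3 lower and 2 higher, beside 0.519% and 1.14%. Between TSO DSS and Veh DSS 0 of 180 genes passed in limma or edgeR, beside 0% of all genes called lower and 0.00881% higher. Unadjusted, limma counted 3 lower and 2 higher, beside 0.44% and 1.18% of all genes, and edgeR 1 lower and 3 higher, beside 0.432% and 1.26%. On the log2(CPM + 1) scale the median changes of the genes in IEC were -0.48 in TSO DSS, -0.28 in Veh DSS and -0.38 in TSO Water, beside -0.21, -0.10 and -0.20 over all genes tested, all against the same Veh Water libraries.

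By the median level, rabbits with more of these transcripts in LPMC also had more of them in IEC within 3 of the 4 groups. The order of the rabbits was the same in both cell types for Veh Water, Veh DSS and TSO DSS, whose LPMC libraries chose the genes. It differed for TSO Water, the group that the choice did not use. An order of 3 rabbits can match by chance, and no order was taken over all genes. The 213 genes that met only the conditions on TSO DSS had the same order of rabbits in both cell types within the same 3 groups, so this was not particular to the 185 genes. Veh DSS 2 was the lowest of its group for 127 of the genes in IEC, beside 35.2% of all genes, as it was in LPMC. TSO DSS 2 was the highest of its group for 159 genes in IEC, beside 51.2% of all genes. IEC TSO DSS 3, the lowest of its group for 122 genes, was also the lowest for 71.2% of all genes, and mitochondrial genes took 46.5% of its reads, whose part in this was not tested.

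Within IEC the genes moved together from library to library. Each gene's deviations from its group means over the 12 IEC libraries were set against those of the mean of the other 184 genes, and Pearson's r had a median of 0.82, with 138 of the 185 genes (74.6%) above 0.5. The 11550 other tested genes had a median of 0.22 against the mean of the 185, with 17.0% above 0.5. The 1659 other genes higher in LPMC had a lower median, 0.14, but a larger share above 0.5, 26.5%. The 213 genes that met only the conditions on TSO DSS had a median of 0.81, close to that of the 185. Points of these correlations share their libraries, depth and group means. Rabbits of Veh Water, Veh DSS and TSO DSS also gave the LPMC libraries that chose the genes. The correlations are therefore not independent of the choice. With CPM taken over genes off the mitochondrial genome, the medians were 0.82 for the 185 genes and 0.10 for all others. On CPM over all genes, where the medians were 0.82 and 0.22, leaving out IEC TSO DSS 2 gave 0.66 for the 185 genes and 0.11 for all others, and leaving out all IEC TSO DSS libraries gave 0.70 and 0.05.

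**Figure D5:**
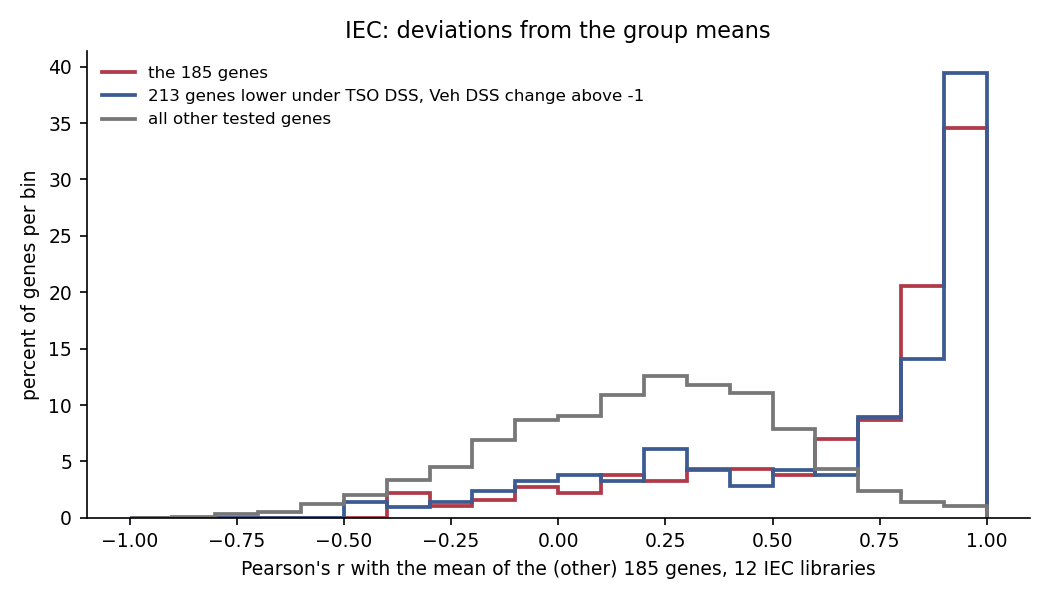
Distribution over genes of Pearson's r between a gene's deviations from its group means and those of the mean of the 185 genes (without the gene itself) in 12 IEC libraries, as the percent of genes in each bin of 0.1. The 185 genes (red, median 0.82) and the 213 genes that met only the conditions on TSO DSS (blue, median 0.81) pile up near 1, whereas the other tested genes (grey) have a median of 0.22.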

How the data were processed

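RNA of IEC and LPMC from 12 rabbits was sequenced, and the authors deposited 6 tables, each with 6 libraries of 1 cell type (3 treated, 3 Veh Water), in which the signal of a gene is its read number multiplied by a library factor. FastQC and the build OryCun2.0 are named in the submitters' processing notes, and the aligner and counter are not given in the sources used here. The tables also hold the authors' own log2 ratios, p-values, FDR and clusters, which were not used. All 36 library columns were used.

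Values under 1000 were whole multiples of the value of 1 read, with 100% of them within 0.1 of a whole number. Reads were therefore recovered for depth, CPM and edgeR. For abundant genes, at 1061 reads or more, the recovery was not exact. Reads of a Veh Water library differed between tables for up to 1534 genes. The largest CPM difference was 44.3, in LPMC Veh Water 1, and the first table was kept. An edgeR test had been planned for raw counts. As the values are normalized, limma 3.58.1 (trend, R 4.3.3) was run on log2(value + 1) over the genes the authors marked as present. Groups from different tables were compared on log2 of recovered reads scaled by TMM, with 1 added. Calls needed p under 0.05 after Benjamini-Hochberg adjustment together with a log2 fold change past 1. The alternative test was the quasi-likelihood test of edgeR 4.0.16. Other alternatives were scaling by library total, a pseudocount of 0.1, all genes without a filter, room A only, a replicate block and each replicate left out. Reads thinned to the smallest library, the scaling of the deposited tables and other sets of IEC libraries were added after the data were seen. Python 3.11.15, numpy 2.4.6, pandas 2.3.3 and matplotlib 3.10.9 were used for the rest.

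The 185 genes and the lists were chosen with earlier results of these data known. Genes were named by rank: the 6 most abundant, the extremes of each change, the called genes with the lowest adjusted p-value or largest difference, and those nearest each limit. Genes with an overlap between TSO DSS and TSO Water were named after their values were seen. A table of 38822 gene names of the assembly mOryCun1.1 matched 0 identifiers, so the planned marker and pathway lists were not run. Replicates are separate rabbits, and the precision is set by 3 rabbits per group. IEC and LPMC with the same number come from the same rabbit, which pairs them; in TSO Water the deviations of the pairs from the group means correlated by -0.03, 0.20 and -0.09 over genes. Libraries of different groups share only a number.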

Additional observations from a re-analysis of the deposited data

Results flagged for a closer look

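Of the 185 genes, 10 had a difference from Veh Water in IEC that pointed up in every library while that in LPMC pointed down in every library. Whether the cell types differ in their response was not tested for any of them, and the LPMC direction is fixed by the choice of the genes. IEC changes are on the log2(CPM + 1) scale. In IEC all TSO DSS libraries lay above all Veh Water libraries for 6 of the 185 genes (3.24%), beside 7.31% of all genes, and all Veh DSS libraries for 8 (4.32%), beside 5.66%. For 6 of those 8 the LPMC libraries of Veh DSS were also all under those of Veh Water.

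Under TSO DSS the largest was that of ENSOCUG00000024036 on chromosome 14, with an IEC change of 3.96. It measured 0.364, 0.746 and 0.380 CPM in IEC of Veh Water and 19.9, 199 and 1.93 CPM in TSO DSS, and without TSO DSS 2 the change was 2.396. ENSOCUG00000000440 had an IEC change of 1.803, from 0.182, 0.326 and 0.152 CPM to 1.22, 15.2 and 1.14 CPM, and without TSO DSS 2 it was 0.84. The others were ENSOCUG00000025226 with 0.94, ENSOCUG00000023498 with 0.77 (0.51 without TSO DSS 2), ENSOCUG00000004978 with 0.69 and ENSOCUG00000011655 with 0.47, all at or under 1.92 CPM in every IEC library concerned.

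Under Veh DSS these were ENSOCUG00000004978 with an IEC change of 0.69, ENSOCUG00000001454 with 0.62 (0.35 without Veh DSS 2), ENSOCUG00000003322 with 0.43 (0.17 without Veh DSS 2), ENSOCUG00000023498 with 0.40, ENSOCUG00000015170 with 0.22 and ENSOCUG00000023860 with 0.16 (0.10 without Veh DSS 3), all at or under 2.17 CPM in IEC. In limma with Benjamini-Hochberg adjustment, ENSOCUG00000025226 under TSO DSS was the only one called in IEC.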

How the results depend on the processing

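The number of genes that met the conditions was 403 with a pseudocount of 0.1 and 457 with the scaling of the deposited tables, both with all 185 among them, and the median TSO DSS change of the 185 was then -3.72 and -3.81. With a replicate left out it ranged from 64 (without Veh DSS 2) to 299 (without Veh Water 3), and was 281 without Veh DSS 1. Of the 185, 112 met the conditions without Veh Water 1, which is also room A alone. Genes called higher in LPMC than IEC of TSO Water numbered 139 to 154 with a replicate left out, and 152 with the rabbit as a replicate block. In IEC of TSO DSS against Veh Water, limma's 1 lower and 1 higher gene became 0 and 0 with a pseudocount of 0.1 and in room A alone, 2 and 0 with scaling by library total, 0 and 1 with edgeR, and 1 and 0 with the replicate block. With a replicate left out the counts ranged from 0 to 21 lower (21 without TSO DSS 2, 6 without TSO DSS 3) and from 0 to 6 higher (6 without TSO DSS 3). In Veh DSS they ranged from 0 to 7 lower (7 without Veh DSS 1). The causes were not tested. The block changed no other call, and the other counts of called genes stayed within 1.5 times. The size of IEC difference that these libraries can show was not measured.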
